A study of Mus musculus with 36 samples.

Results

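Purinergic and resident-macrophage genes are described here across 36 RNA-seq libraries of mouse bone cells. They are Gpr34, Slco2b1, P2ry6, P2ry12, P2ry13 and P2ry14, 6 of the 30284 genes measured. Gpr34 and Slco2b1 were chosen by their expression levels, because they were low in wild-type osteoclasts against wild-type macrophages, and the 4 P2Y receptor genes were added as relatives. The values in wild-type osteoclasts and macrophages that made this choice are therefore given as a description with no test.

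The study compared wild-type (WT) and Mir324-null (null) bone cells, with 6 libraries in each of 6 groups, all from mice 20 weeks old. Bone marrow macrophages (BMM) spent 5 days in 30 ng/mL of M-CSF, a macrophage growth factor. Osteoclast cultures (OC) had 30 ng/mL of M-CSF plus 50 ng/mL of RANK-L, the cytokine that drives osteoclast formation, over the same 5 days. Marrow cells of both kinds had first been grown out with M-CSF. Osteoblasts (OB) were grown from collagenase-digested bone chips and kept for 18 days in medium with β-glycerophosphate and ascorbic acid. The labels do not say whether the libraries of a group came from separate mice, so p-values measure the spread between these libraries, which may be technical. The labels name no strain, and Mir324 itself was not analysed here.

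Extracellular nucleotides leave stressed or dying cells and act on macrophages through P2Y receptors, which couple to G proteins, and through P2X channels, which ATP opens. Ectoenzymes on the cell surface break the nucleotides down to adenosine. GPR34 is a related receptor for the lipid lysophosphatidylserine, and SLCO2B1 carries organic anions into cells. P2ry12, P2ry13 and Gpr34 are known as genes of microglia and of other resident macrophages. RANK-L turns macrophages into osteoclasts, the cells that resorb bone.

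The null mice lack the microRNA gene Mir324, and its mature arms are shown because they are what the genotype removes. They are given as RNA from RefSeq on GRCm38.p6, at chr11:70012060-70012082 and chr11:70012095-70012114 on the plus strand, with the seed (bases 2 to 8) in capitals.
mmu-miR-324-5p: cGCAUCCCcuagggcauuggugu
mmu-miR-324-3p: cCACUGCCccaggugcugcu
The seed matches GGGATGC and GGCAGTG occurred 0 times in the annotated 3′ UTRs of the transcripts listed for the 6 genes. This says only that these letters are not in those sequences.

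P2ry12, P2ry13 and P2ry14 lie next to each other on the minus strand of chromosome 3 (GRCm38, GENCODE M21), at chr3:59216272-59262871, chr3:59207892-59210882 and chr3:59113855-59153618. P2ry12 and P2ry13 are 5389 bases apart, and P2ry13 and P2ry14 are 54273 bases apart. All 3 sit inside Med12l, which runs on the plus strand. The 250 bases before the RefSeq start of each of these neighbours are shown because P2ry12 and P2ry13 had like levels across the libraries and P2ry14 did not. They are read 5′ to 3′ on the minus strand of GRCm38.p6 at chr3:59262986-59263235, chr3:59210883-59211132 and chr3:59130763-59131012.
P2ry12: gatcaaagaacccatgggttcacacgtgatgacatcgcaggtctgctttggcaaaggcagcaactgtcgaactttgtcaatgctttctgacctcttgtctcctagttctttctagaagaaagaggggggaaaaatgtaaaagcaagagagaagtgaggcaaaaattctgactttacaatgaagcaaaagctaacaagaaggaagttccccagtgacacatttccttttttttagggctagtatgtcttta
P2ry13: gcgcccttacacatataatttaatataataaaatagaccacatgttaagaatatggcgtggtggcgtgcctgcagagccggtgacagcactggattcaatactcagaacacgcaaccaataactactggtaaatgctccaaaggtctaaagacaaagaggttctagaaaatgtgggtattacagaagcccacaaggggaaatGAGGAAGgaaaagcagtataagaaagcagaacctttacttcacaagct
P2ry14: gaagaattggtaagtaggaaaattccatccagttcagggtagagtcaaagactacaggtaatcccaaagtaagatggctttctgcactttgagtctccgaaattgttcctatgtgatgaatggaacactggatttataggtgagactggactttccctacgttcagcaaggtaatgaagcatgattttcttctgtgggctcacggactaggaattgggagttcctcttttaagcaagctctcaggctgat
The capitals in the P2ry13 sequence mark 1 match to GAGGAAG, a sequence that the macrophage factor PU.1 binds, at -48 from the start. The 4 motifs searched on both strands were GAGGAAG (PU.1), TGANTCA (AP-1), TGGAAA (NFAT) and TGCTGA (MAF), and none of them contains another. The P2ry14 window held 1 match to TGCTGA, and the P2ry12 window held 0 matches to any of the 4. The P2ry12 window lies before only 1 of the 2 transcripts listed for that gene. The other starts at chr3:59220259 and held a median of 45.2% of the gene's length-corrected level in WT BMM and 56.1% in null OC. The P2ry14 window lies before 1 of 4 RefSeq starts. Windows before the other starts were not searched. Over 32851 promoter windows of RefSeq, GAGGAAG occurred in 10.6%, TGANTCA in 6.75%, TGGAAA in 18.6% and TGCTGA in 16.1%.

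P2ry6 (chr7:100937630-100974649) and Slco2b1 (chr7:99657804-99711340) lie on the minus strand of chromosome 7, 1226289 bases apart. Gpr34 (chrX:13632089-13640858) is on the plus strand inside Cask, which runs on the minus strand. The sources used here do not state a strand-specific count. No 31-base stretch of the Gpr34, P2ry12, P2ry13 or P2ry14 transcripts also occurs in an annotated transcript of another gene. Reads from introns of Cask or Med12l that cover these genes could still not be told apart from theirs. The median level of Med12l was between 0.594 and 2.56 CPM, the count scaled to the library's total and its TMM factor, in the 6 groups. Med12l itself differed in the same direction as P2ry12 and P2ry13 in null BMM against WT BMM, at -1.13 on the log2 scale (adjusted p = 0.00118). Of the 31-base stretches of Slco2b1, 7.69% also occur in other genes, so its lowest values are uncertain; how far those genes contribute to them was not tested.

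The libraries held 14118972 to 26347581 estimated counts. The 6 osteoclast markers (Ctsk, Acp5, Calcr, Ocstamp, Dcstamp and Atp6v0d2) summed to 22091 to 23854 CPM in WT OC. In null OC they summed to 135 to 443 CPM, so the defining markers of the labelled cell type were low there, and 1 of the 6 was at 0 in every library. Osteoblast libraries carried the 6 osteoblast markers and also 5 macrophage markers (Csf1r, Adgre1, Cd68, Itgam and Fcgr1), which summed to 1998 to 2365 CPM in WT OB and 1706 to 1869 CPM in null OB. Markers of other cell types were low or rested on 1 or 2 genes: neutrophil markers summed to at most 17.2 CPM, lymphocyte markers to 1.57, mast cell markers to 7.61 and dendritic cell markers to 6.23 CPM. Among megakaryocyte and platelet markers, which matter because platelets express P2ry12, only Pf4 was over 1 CPM in BMM. The list summed to 162 to 248 CPM in WT BMM and 919 to 1565 CPM in null BMM, and its bearing on P2ry12 was not tested. Endothelial markers, carried by Pecam1, summed to 76.3 to 313 CPM over all groups. Osteoclast markers summed to 3120 to 5117 CPM over all osteoblast libraries. In such bulk samples, fewer cells of a type and less RNA per cell cannot be told apart.

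Gpr34 and Slco2b1 were abundant in WT BMM and low in the other 3 marrow-derived groups. Gpr34 ranged from 40.9 to 57.8 CPM in WT BMM (median 48.9) and from 0.552 to 0.869 CPM in WT OC (median 0.706). In null BMM it ranged from 1.64 to 3.94 CPM (median 2.27), and in null OC from 0.149 to 1.74 CPM (median 1.04). All 6 WT BMM libraries lay above all libraries of the other marrow-derived groups. In osteoblast cultures Gpr34 was again high, at 45.4 to 63.3 CPM in WT OB (median 52.7) and 20.9 to 42.1 CPM in null OB (median 28.9).

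Slco2b1 was likewise highest in WT BMM, with null BMM next among the marrow-derived cells, but its median was lowest in null OC rather than in WT OC. Its levels were 72.6 to 97.2 CPM in WT BMM (median 87.4), 0.246 to 2.68 CPM in null BMM (median 0.936) and 0.102 to 0.552 CPM in WT OC (median 0.304). In null OC it reached at most 0.438 CPM (7 counts), with a median of 0.0801 CPM, and 3 of the 6 libraries had 0 counts. The osteoblast cultures were intermediate, with 15.8 to 23.8 CPM in WT OB (median 19.4) and 8.40 to 23.3 CPM in null OB (median 14.4). WT BMM stood clear of every other group, whereas the ranges of WT OB and null OB overlapped, as did those of null BMM and WT OC and of WT OC and null OC.

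P2ry6, the receptor for UDP, was the most abundant of the 6 and was found in every library. It ranged from 358 to 414 CPM in WT BMM (median 386), from 251 to 347 CPM in null BMM (median 301) and from 86.0 to 99.5 CPM in WT OC (median 92.8). Null OC held 279 to 397 CPM (median 316), within reach of the macrophages and above all WT OC libraries. In the osteoblast cultures the levels were 75.6 to 99.2 CPM in WT OB (median 85.2) and 44.9 to 70.8 CPM in null OB (median 53.4), with no overlap.

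P2ry12 and P2ry13, both receptors for ADP, had nearly the same levels. P2ry12 ranged from 39.8 to 62.5 CPM in WT BMM (median 54.2), from 17.1 to 22.2 CPM in null BMM (median 19.1), from 5.35 to 7.53 CPM in WT OC (median 6.45) and from 5.72 to 14.6 CPM in null OC (median 12.04). P2ry13 ranged from 41.3 to 65.8 CPM in WT BMM (median 54.0), from 13.3 to 22.7 CPM in null BMM (median 19.8), from 4.10 to 5.47 CPM in WT OC (median 4.91) and from 7.38 to 22.2 CPM in null OC (median 18.1). For both genes WT BMM was highest and WT OC lowest. In the osteoblast cultures P2ry12 was at 21.3 to 34.8 CPM in WT OB and 13.8 to 28.6 CPM in null OB, and P2ry13 at 24.1 to 38.1 CPM and 14.5 to 31.9 CPM. The lowest null OC library was replicate 3 for P2ry12, P2ry13 and P2ry14, and for P2ry13 replicate 6 was next at 10.1 CPM. For P2ry12, replicate 6 was instead the highest null OC library, at 14.6 CPM. Replicate 6 had the most osteoclast marker counts of null OC, at 443 CPM, and replicate 3 the fewest, at 135 CPM. Replicate 6 also had the most osteoblast marker counts of null OC, at 223 CPM. These 2 libraries had the fewest total counts of null OC. The bearing of these traits on the P2Y levels was not tested.

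P2ry14, the receptor for UDP-glucose, had another order. It was highest in WT OC, at 22.0 to 26.1 CPM (median 22.8), above all libraries of every other group. WT BMM held 5.64 to 14.1 CPM (median 11.8), null BMM 10.8 to 17.0 CPM (median 11.4) and null OC 5.72 to 12.6 CPM (median 8.44), and these 3 overlapped. The osteoblast cultures were lowest, at 3.97 to 6.10 CPM in WT OB (median 5.13) and 2.32 to 5.00 CPM in null OB (median 2.86).

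**Figure D1:**
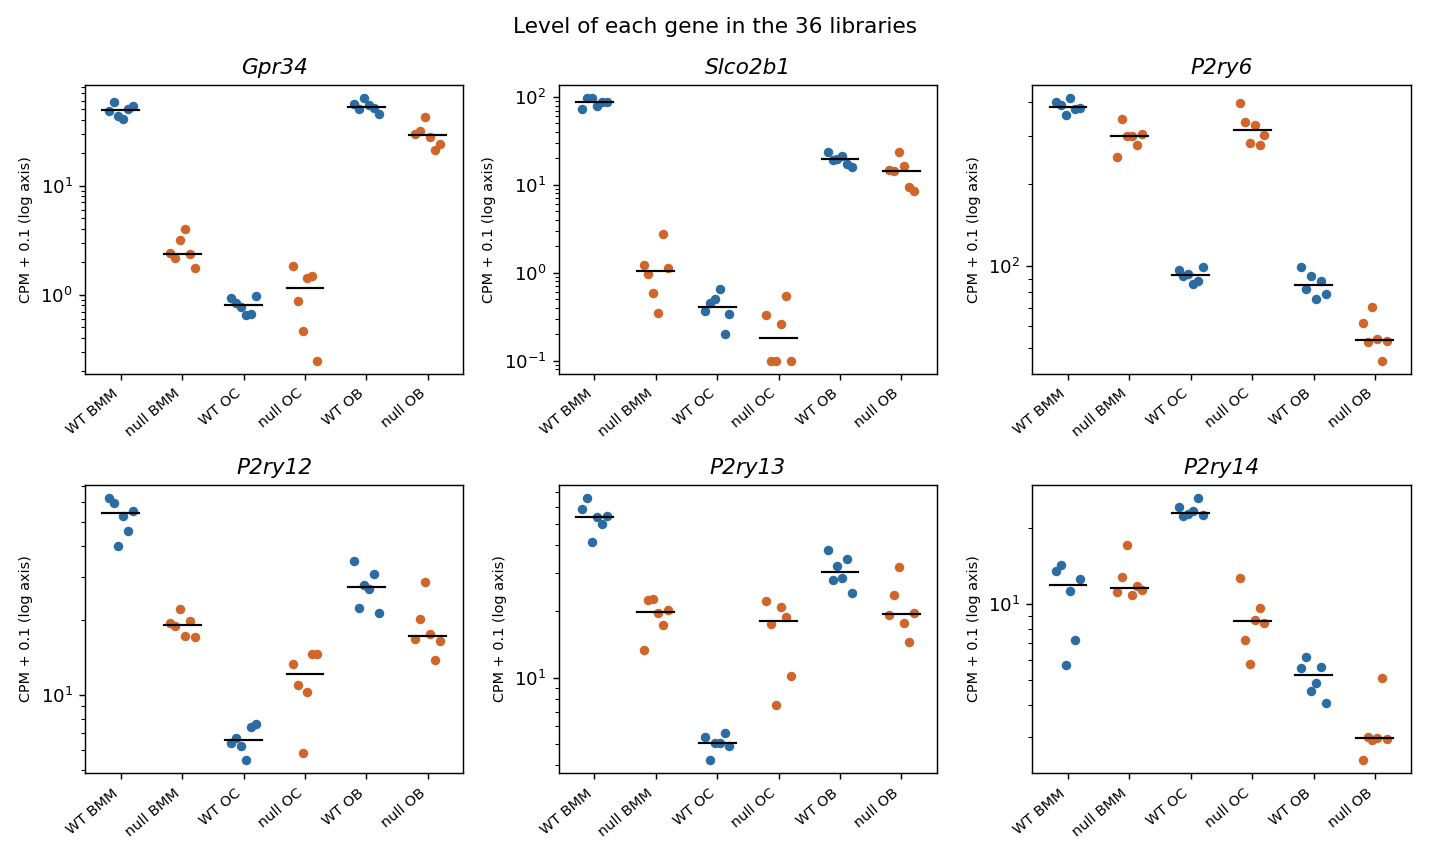
Level of each gene in CPM, plotted as CPM + 0.1 on a log axis whose range differs between panels; each point is 1 library (blue WT, orange null) and each bar the median of 6. Gpr34 and Slco2b1 are high in WT BMM and in the osteoblast cultures and low in the other 3 groups, whereas P2ry14 is highest in WT OC, with a median of 22.8 CPM.

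Compared per length, in TPM, which corrects the count for transcript length as well as library size, P2ry6 was the highest of the 6 in every group. Its median level was 311 TPM in WT BMM and 50.9 TPM in null OB, which was 67.4% and 44.7% of the summed medians of the 6 genes. In WT BMM, P2ry12, Gpr34, P2ry13 and Slco2b1 followed within a narrow band of medians from 38.0 down to 30.9 TPM. In WT OC the next was P2ry14, at 23.0 TPM, and Gpr34 and Slco2b1 were last, at 0.579 and 0.285 TPM. In both osteoblast groups Gpr34 came next after P2ry6, at 42.0 TPM in WT OB and 26.5 TPM in null OB.

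**Figure D2:**
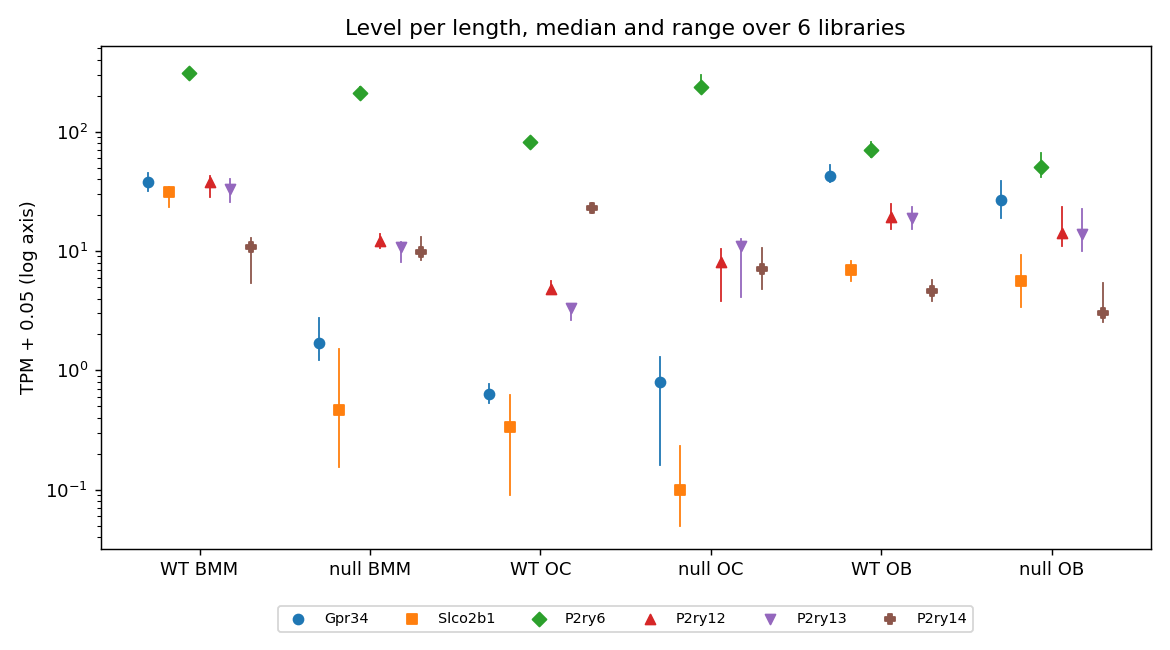
Level per length of the 6 genes in each group, in TPM + 0.05 on a log axis; symbols are medians and lines the range over 6 libraries. P2ry6 is highest in all groups, and the order of the other 5 differs between groups, with Gpr34 at 42.0 TPM in WT OB and 0.579 TPM in WT OC.

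In WT cells the fitted log2 fold change of OC against BMM was -8.06 for Slco2b1, -6.10 for Gpr34, -3.46 for P2ry13, -3.01 for P2ry12 and -2.06 for P2ry6. For P2ry14 it was 1.14. On log2(TPM + 0.5), which understates the change of low genes, Slco2b1 was at -5.31, Gpr34 at -5.14 and P2ry13 at -3.14, and with an offset for average transcript length Slco2b1 was at -7.27. The choice of genes used this contrast, in which 60.5% of the 12671 genes tested passed an adjusted p of 0.05, 30.4% higher and 30.1% lower. The ranges of the 2 groups did not overlap for any of the 6, and the share of all genes without overlap was not counted.

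The null cultures gave a smaller difference between OC and BMM. Adjusted p-values here and below come from edgeR's quasi-likelihood test with Benjamini-Hochberg adjustment over all genes tested in a comparison. Slco2b1 passed the filter on low counts there only through WT BMM, the group it was chosen by, so its difference is a description. Of the other 5 genes 2 fell with RANK-L in null cells, where 12.9% of all genes passed, 6.77% rising and 6.08% falling. Gpr34 was at -1.31 on the log2 scale (SE 0.27, adjusted p = 0.00454) and P2ry12 at -0.72 (SE 0.15, adjusted p = 0.00485). P2ry14 (-0.50, adjusted p = 0.0710), P2ry13 (-0.23, adjusted p = 0.429) and P2ry6 (0.12, adjusted p = 0.286) did not pass. For Slco2b1 the median went from 0.936 CPM in null BMM to 0.0801 CPM in null OC, and the fitted value of -2.81 rests on few counts and became -0.89 on log2(TPM + 0.5).

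This count depended on the libraries fitted. The fit above used 24 libraries and shared 1 spread between WT and null libraries. With only the 12 null libraries, 236 genes were called against 1629, and P2ry12 was the 1 gene of the 6 that passed. Gpr34 then had an adjusted p of 0.0835, and Slco2b1 did not pass the filter. In an exact two-sided permutation test of log2(CPM + 0.5), 6 libraries against 6, unadjusted, P2ry12 gave p = 0.00216, the smallest this design allows. Gpr34 gave p = 0.00433 and P2ry14 p = 0.0130 in the same exact test, and Slco2b1 is left out because its difference is a description. The exact p was 0.284 for P2ry13 and 0.314 for P2ry6.

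Side by side, the difference between the null and the WT response (null minus WT, on the log2 scale) was 5.26 for Slco2b1, 4.78 for Gpr34, 3.23 for P2ry13, 2.29 for P2ry12 and 2.18 for P2ry6, and -1.64 for P2ry14. These are a description, since they share the WT libraries that the choice of genes used, and the value for Slco2b1 also rests on the few counts in null OC. For P2ry14 the sign in WT was the opposite of that of the other 5.

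Null BMM were compared with WT BMM in cultures without RANK-L. Gpr34 and Slco2b1, whose choice used the WT BMM libraries, are given as a description, at 19.2-fold and 81.1-fold lower mean CPM than WT BMM. Of the 4 relatives 3 fell, where 52.4% of all 11935 genes passed, 27% rising and 25.3% falling. The log2 difference was -1.46 for P2ry12 (SE 0.11, adjusted p = 1.82e-08), -1.49 for P2ry13 (SE 0.13, adjusted p = 1.14e-07) and -0.37 for P2ry6 (SE 0.07, adjusted p = 4.00e-04). These 3 passed whichever 1 of the 12 libraries was left out. In each of them, all 6 null libraries lay below all 6 WT libraries, and the share of all genes that separate so was not counted. P2ry14 was at 0.23 (SE 0.20, adjusted p = 0.370), with overlapping ranges. The 5 macrophage markers moved as well, with Adgre1 rising by 1.99 and Fcgr1 (-1.39), Cd68 (-0.52) and Itgam (-0.50) falling, while Csf1r (0.09, adjusted p = 0.321) did not pass. Their sum was 6391 to 7031 CPM in WT BMM and 10614 to 12431 CPM in null BMM, and their part in these differences was not tested.

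In OC the 3 relatives that had fallen in null BMM were higher in the null genotype. All 4 relatives passed in null OC against WT OC, where 65.5% of 12129 genes passed, 32.4% rising and 33.1% falling. P2ry6 rose by 1.80 on the log2 scale (SE 0.08, adjusted p = 3.80e-12), P2ry13 rose by 1.73 (SE 0.22, adjusted p = 3.71e-06) and P2ry12 rose by 0.82 (SE 0.19, adjusted p = 0.00103). P2ry14 fell by 1.42 (SE 0.14, adjusted p = 1.79e-07). Of the 4, the groups overlapped only for P2ry12, of which 5 of 6 null libraries were above all WT libraries. How many of all genes had no overlap in OC was not counted. For Gpr34, described only, 3 null OC libraries lay above and 2 below all WT OC libraries, and Slco2b1 did not pass the filter on low counts there. All 4 relatives passed whichever 1 of the 12 libraries was left out. The osteoclast markers given above were lower in the same null OC libraries, and 4 of the 5 macrophage markers were higher and 1 lower, with sums of 4575 to 5051 CPM in WT OC and 9100 to 12655 CPM in null OC. Their part in these differences was not tested.

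In osteoblast cultures, whose libraries had no part in choosing the genes, 5 of the 6 genes fell in null OB against WT OB. Of all 13614 genes tested there, 32.5% passed, 15.5% rising and 16.9% falling. On the log2 scale the difference was -0.87 for Gpr34 (SE 0.14, adjusted p = 4.91e-04), -0.69 for P2ry14 (SE 0.18, adjusted p = 0.00831) and -0.62 for P2ry6 (SE 0.10, adjusted p = 3.29e-04). P2ry13 was at -0.55 (SE 0.17, adjusted p = 0.0227) and P2ry12 at -0.54 (SE 0.17, adjusted p = 0.0248). Slco2b1 was at -0.44 (SE 0.21, adjusted p = 0.134) and did not pass. Gpr34 and P2ry6 had no overlap between groups, and the other 4 overlapped. The share of all genes without overlap in OB was not counted.

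The P2ry12 and P2ry13 calls were the least firm of these. On log2(TPM + 0.5) with limma, 3 genes passed, with adjusted p = 0.0914 for P2ry12 and 0.0764 for P2ry13. Leaving out null OB replicate 4 also left 3 genes. P2ry12 lost its call without WT OB replicate 1 or 5, or without null OB replicate 1, 4 or 6, with adjusted p up to 0.0567. Slco2b1 passed without null OB replicate 3, at -0.63 (adjusted p = 0.0147), and in the fit with the replicate number as a block (adjusted p = 0.0270).

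Some markers of osteoblasts, macrophages and osteoclasts also differed in null OB. The osteoblast markers summed to 44492 to 63592 CPM in WT OB and 78998 to 98289 CPM in null OB, with Col1a1 (0.83), Ibsp (0.73) and Runx2 (0.55) rising and the other 3 of 6 not passing. Of the 5 macrophage markers 3 fell, namely Fcgr1 (-0.69), Cd68 (-0.55) and Adgre1 (-0.52), while Csf1r (0.05, adjusted p = 0.520) and Itgam (-0.06, adjusted p = 0.599) did not pass. Of the 6 osteoclast markers 2 rose, Ctsk (0.32) and Atp6v0d2 (0.40), and 4 did not pass. The 6 summed to 3120 to 3934 CPM in WT OB and 3517 to 5117 CPM in null OB. The part of any of these lists in the lower values of the genes described here was not tested.

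**Figure D3:**
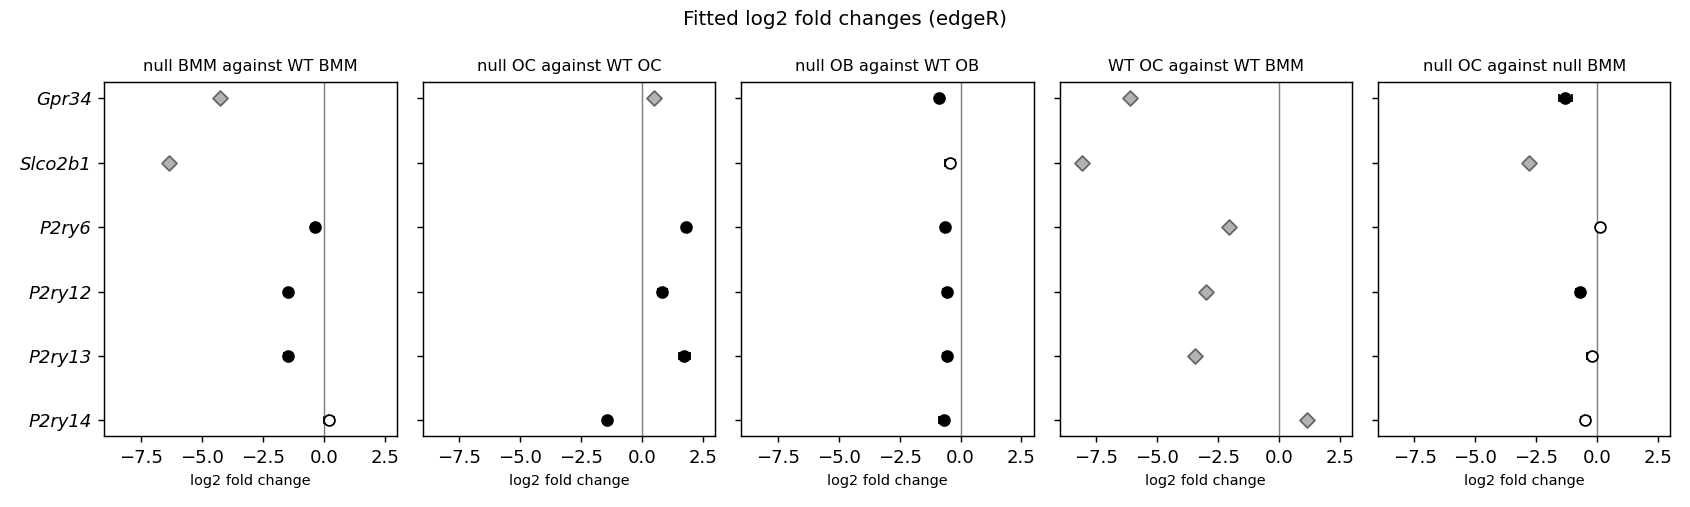
Fitted log2 fold changes of the 6 genes in 5 comparisons; circles have a bar of 1 SE and are filled where the adjusted p is under 0.05, and grey diamonds are described with no test. Slco2b1 is described in null OC against null BMM and has no point in null OC against WT OC; in null OB against WT OB all 6 points lie below 0, and Slco2b1 at -0.44 is open.

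Within the null genotype, the cell types differed by gene. Null OB against null BMM passed for 4 of the 6 genes, where 76% of all 14278 genes passed, 40.8% rising and 35.2% falling. Gpr34 (3.52, SE 0.21) and Slco2b1 (3.75, SE 0.31) rose, and P2ry6 (-2.40, SE 0.09) and P2ry14 (-1.98, SE 0.20) fell. P2ry12 (-0.02, adjusted p = 0.934) and P2ry13 (0.14, adjusted p = 0.513) did not pass, and P2ry13 passed on log2(TPM + 0.5) at 0.45 (adjusted p = 0.0299). Slco2b1 passed the filter on low counts through libraries where it was high, those of OB and WT BMM, so its place among the 4 is a description. P2ry12 changed sign with the scaling, at 0.0627 under RLE.

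Null OB against null OC passed for 5 of the 6, where 76.9% of all genes passed, 42.7% rising and 34.2% falling. Slco2b1 rose by 6.57 (SE 0.42), a value that depends on the prior count of the fit because 3 null OC libraries were at 0. It again passed the filter on low counts through libraries where it was high and not through null OC, so its place among the 5 is a description. Gpr34 rose by 4.84 (SE 0.24) and P2ry12 by 0.71 (SE 0.17), and P2ry6 fell by 2.52 (SE 0.09) and P2ry14 fell by 1.47 (SE 0.20). P2ry13 was at 0.38 (adjusted p = 0.0691), and passed under RLE scaling at 0.44 (adjusted p = 0.0341).

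The genotype effect differed between cell types by an interaction term in most of the relatives. Taking the effect in OB minus that in OC, 4 of the 4 passed, where 55.3% of all genes passed, with P2ry6 at -2.40, P2ry13 at -2.27, P2ry12 at -1.34 and P2ry14 at 0.75 (adjusted p = 0.0190). The last was lost without null OB replicate 5 (0.54, adjusted p = 0.0799) and with limma-voom (0.65, adjusted p = 0.0745). In OB minus BMM, 3 of the 4 passed, where 45.8% of all genes passed, with P2ry13 at 0.95, P2ry12 at 0.94 and P2ry14 at -0.91. P2ry6 was at -0.23 (adjusted p = 0.126), and passed without null OB replicate 3 at -0.29 (adjusted p = 0.0392).

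The neighbour genes of the 6 loci, Med12l and Cask among them, were called at about the share of all genes in null BMM, with 2 of 6 tested higher and 2 lower against 27% and 25.3% of all genes.

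Other parts of the nucleotide pathway were followed in gene lists. Entpd1 (CD39), the ectoenzyme that breaks down ATP and ADP, was at 229 to 473 CPM in WT BMM, 82.8 to 123 CPM in null BMM, 32.7 to 37.9 CPM in WT OC and 34.7 to 95.3 CPM in null OC. It fell by 3.39 in WT OC against WT BMM and fell by 1.78 in null BMM, rose by 0.99 in null OC and fell by 0.88 in null OB against WT OB. Each passed, and the directions were those of P2ry12. It was 1 of 13 genes of nucleotide release and breakdown, of which 9 were tested in BMM with 3 higher and 3 lower in null, where 52.4% of all genes passed, and 13 in OB with 0 higher and 1 lower, where 32.5% passed. Enpp1, which makes pyrophosphate from ATP, fell by 1.65 in null BMM and rose by 1.07 in null OC, and Panx1, a channel that releases ATP, rose by 1.22 and by 1.86. In null OC against WT OC 9 of the 13 were tested, with 4 higher and 2 lower, where 65.5% of all genes passed. The 2 lower were Ada (-0.73) and Slc29a1 (-0.54).

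Of the 7 P2X channel genes, 3 were tested in BMM and in OC, with 2 higher and 1 lower in null in each, and 5 in OB, with 3 lower; 52.4%, 65.5% and 32.5% of all genes passed there. P2rx4 rose in null BMM (0.38) and null OC (1.72), and P2rx7 fell in null BMM by 0.53 and rose by 1.27 in null OC. P2rx5 was higher in WT OC, with 19.0 to 23.97 CPM, than in WT BMM, with 0 to 0.215 CPM, and null OC held 0.640 to 1.81 CPM. Null OC against null BMM did not pass for P2rx5 (0.05, adjusted p = 0.943). It was also higher in null OB than in null BMM (2.83) and null OC (2.79), and both differences passed. The adenosine receptor gene Adora2a was at 5.52 to 12.5 CPM in null BMM and at most 0.114 CPM in WT BMM. Of the 4 adenosine receptor genes 2 were tested in BMM and in OC. Both were higher in null BMM and null OC, where 27% and 32.4% of all genes were higher. In BMM, Adora2a passed the filter on low counts only through null BMM, so its direction there followed from the filter. Among the 9 other P2Y and lysophosphatidylserine receptor genes, P2ry1 and P2ry2 rose in null OC, by 2.23 and 1.01, and P2ry10b fell by 0.89. Abhd12, the lipase that breaks down lysophosphatidylserine, fell by 0.54 in null BMM, rose by 1.05 in null OC and fell by 0.50 in null OB. Of 8 other Slco transporter genes 3 were tested in BMM. Slco3a1 rose by 4.84 and Slco4a1 by 4.48 in null BMM, where 27% of all genes rose. Slco2a1 (0.37, adjusted p = 0.319) did not pass there. In null OC against WT OC 4 were tested, with 2 higher and 1 lower, where 32.4% of all genes rose and 33.1% fell.

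The list of 23 resident-macrophage genes was chosen with earlier results of these data known. In null BMM 16 of 19 tested fell and 2 rose, with a median of -0.999 against 0.02 over all genes tested, of which 25.3% fell and 27% rose. In null OC against WT OC 13 rose and 3 fell of 19, with a median of 1.24 against -0.03 over all genes, of which 32.4% rose and 33.1% fell. In null OB 14 of 19 fell and 0 rose, with a median of -0.55 against 0.00186 over all genes, of which 16.9% fell and 15.5% rose. Mrc1, the mannose receptor, fell by 2.30 in null BMM and Cd163, a haemoglobin receptor, fell by 1.32 there and rose by 1.99 in null OC. F13a1, a clotting factor subunit, fell by 3.73 in null BMM, while Tmem119 went against the list, rising by 3.35. With RANK-L in null cells 6 of 20 fell and 0 rose, where 6.08% of all genes fell and 6.77% rose. This count comes from the 24-library fit, which called 1629 genes against 236 with the 12 null libraries alone.

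**Figure D4:**
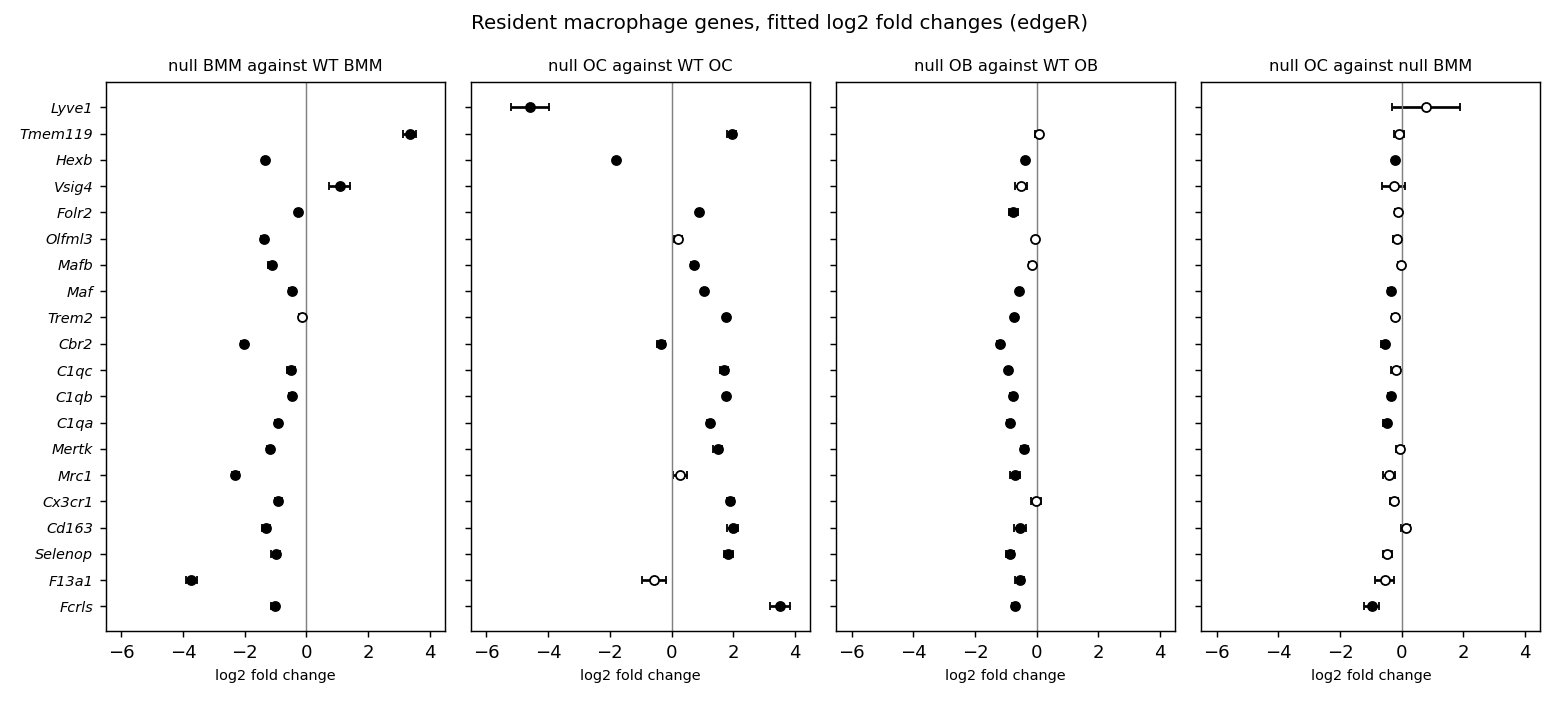
Fitted log2 fold changes of the resident-macrophage genes tested, in 4 comparisons, ordered by their difference in WT OC against WT BMM; bars are 1 SE and filled circles have an adjusted p under 0.05. Most points lie below 0 in null BMM and null OB and above 0 in null OC against WT OC.

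The genes most like each of the 6 were taken by Pearson's correlation of log2 CPM over the 36 libraries, among 12637 genes with a mean of at least 1 CPM, as a description. For Gpr34 they were Cbr2 (0.961), Cela1 (0.951) and Slco2b1 (0.951), and for Slco2b1 they were Sulf2 (0.956), Bmyc (0.951) and Gpr34. P2ry12 was nearest to Entpd1 (0.952), Gpr160 (0.948) and P2ry13 (0.946), and P2ry13 to Trf (0.974), Rnase4 (0.969) and Gpr160 (0.960). P2ry6 was nearest to Ctsd (0.992), a lysosomal protease, with B3gnt8 (0.992) and Tbxas1 (0.989). P2ry14 was nearest to Clec12a (0.942), Qdpr (0.935) and Casp8 (0.935). Libraries of 1 group share a genotype and a kind of culture, and depth varied within groups, so these values include the differences between the 6 groups. Among the 6 genes, the correlation was lowest for Gpr34 and P2ry14, at -0.608.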

How the data were processed

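Transcript tables of 36 libraries were used, 6 in each of 6 groups named in the labels. The authors deposited for each transcript an estimated count, a TPM value, a length and an effective length (unit other), per the file headers. The submitters' processing notes name kallisto and DESeq2 with no versions and the build GRCh38, although the identifiers are mouse Ensembl transcripts; the annotation release is not given in the sources used here. Of 88198 transcripts, 97.6% matched GENCODE M21 (GRCm38) by identifier; the rest held 0.61% to 0.96% of a library's counts and were left out. Estimated counts and TPM were summed per gene, and counts were rounded.

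Genes were filtered with filterByExpr, scaled by TMM and tested with edgeR 4.0.16 (R 4.3.3, quasi-likelihood, robust), with Benjamini-Hochberg adjustment across every gene tested and a threshold of 0.05. Each genotype comparison used the 12 libraries of its cell type; OC against BMM used 24 libraries, and comparisons with OB used all 36. CPM is the count scaled to a library's total and its TMM factor. The SE came from the F statistic. Groups of 6 limit the precision, and 3 counts in a library was taken as the floor of detection. Alternatives were DESeq2 1.42.0, RLE scaling, limma-voom 3.58.1, no low-count filter, a filter at a mean of 10 counts, limma on log2(TPM + 0.5), a replicate block, length offsets, other sets of libraries and leaving out each library (96 regroupings). The exact permutation test was added after seeing the data. The steps were tested on simulated data. The genes and lists were chosen with earlier results of these data known. Named genes were the 6, genes of those lists, and the 3 most correlated genes of each.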

Additional observations from a re-analysis of the deposited data

Results flagged for a closer look

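In 36 checks of 6 libraries each, 3 had 1 library far from the other 5, and chance gives about 1 in 20. Slco2b1 in null BMM replicate 5 was at 2.68 CPM, P2ry14 in null BMM replicate 3 at 17.0 CPM, and P2ry14 in null OB replicate 5 at 5.00 CPM.

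The genotype effect differed between cell types by the interaction term, for OB minus OC in P2ry6 (-2.40), P2ry12 (-1.34), P2ry13 (-2.27) and P2ry14 (0.75), and for OB minus BMM in P2ry12 (0.94), P2ry13 (0.95) and P2ry14 (-0.91), on the log2 scale. Between BMM and OC, the log2 ratio of null to WT means went in opposite directions, a difference that was not tested because the choice of genes used these WT libraries: P2ry6 at -0.38 in BMM and 1.80 in OC (difference 2.18), P2ry13 at -1.49 and 1.72 (difference 3.21) and P2ry14 at 0.22 and -1.43 (difference -1.66).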

How the results depend on the processing

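The 80 other recomputed counts of the 6 genes called stayed within 1.5 times, and 2 moved: null OB against WT OB called 3 of the 6 with limma on log2 TPM, and null OC against null BMM called 1 in the fit of the 12 null libraries against 3, of which Slco2b1 is given as a description. Leaving out 1 library at a time gave 3 to 6 genes in null OB against WT OB and 3 to 4 in null OC against null BMM. The sign of P2ry12 in null OB against null BMM, which did not pass, became 0.0627 under RLE, 0.00147 with a mean of at least 10 counts, 0.0630 with DESeq2, 0.0268 with voom and 0.29 on log2 TPM, and ranged from -0.17 to 0.0700 without 1 library. P2ry13 in that comparison ranged from -0.0110 to 0.24 without 1 library and was 0.45 on log2 TPM (adjusted p = 0.0299), and P2ry6 in OB minus BMM became 0.0857 on log2 TPM. The cause was not tested. Over all genes, null OB against WT OB called 2915 genes with the length-trend offset against 4421, and null OC against null BMM called 1013 with voom and 236 with the 12 null libraries against 1629. P2ry14 in null OC against null BMM passed with DESeq2 (adjusted p = 0.0423) and without null OC replicate 1 (0.0267).

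Libraries with the same replicate number did not deviate together, with correlations of -0.131 to 0.104 over the 7 pairs of groups. At most 2 of 6 libraries correlated best with their own number. The labels do not say whether a replicate number ties libraries of different groups to the same mouse. Low correlations between separate cultures cannot show that such a tie is absent, so pairing was not decided. With the replicate block, 6 genes were called in null OB against WT OB, 3 in null BMM against WT BMM, 4 in null OC against WT OC and 3 in null OC against null BMM; beyond Slco2b1 in OB it changed no call of the 6. Depth limits Slco2b1, which had 0 to 7 counts in null OC, so its fitted differences from null OC depend on the prior count.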
